A study of Homo sapiens with 6 samples.

Results

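The genes described here encode the subunits, regulators and assembly factors of the proteasome. They were chosen by symbol, as genes whose only symbol on a probe set begins with PSM, a letter from A to G and a digit, and each was read on its brightest probe set, the one with the highest mean over the 6 arrays. The rule found 50 of the 19775 genes measured, on 97 of 54613 probe sets. Of the 50, 42 were proteasome genes, with 13 core subunits above background and 1 below it, 3 immunoproteasome subunits, 14 cap subunits, 4 other regulators and 7 assembly factors. The other 8 were antisense or divergent transcripts and interacting proteins that share the symbol, and they were kept apart. PSMA6 and PSME2 were present only on probe sets with several symbols, and PSMB11, PSMC5, PSMD7 and PSMD13 were not analysed here.

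The proteasome degrades proteins that carry chains of ubiquitin. Its core is a barrel of stacked rings, with alpha subunits in the outer rings and beta subunits in the inner rings, where PSMB5, PSMB6 and PSMB7 hold the catalytic sites. A cap on the end of the barrel binds ubiquitin chains, removes them and, with a ring of ATPases (PSMC genes), unfolds the substrate and threads it into the core. In cells exposed to interferon-gamma the inducible subunits PSMB8, PSMB9 and PSMB10 replace PSMB5, PSMB6 and PSMB7, and the particle is then called the immunoproteasome, which alters the peptides offered to MHC class I molecules. The transcription factor NFE2L1 (NRF1), held at the endoplasmic reticulum and released when proteasome activity is short, raises the subunit genes together. Heat damages proteins and so adds to the load on this pathway.

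Residual MHCC97H cells, an established human hepatocellular carcinoma line heated at 47 °C to imitate the sublethal rim of a thermal ablation, were cultured for 24 h with 100 ng/mL recombinant POSTN (3 arrays) or with 0 ng/mL POSTN (control, 3 arrays). POSTN (periostin) is a secreted matrix protein of stellate cells and fibroblasts. All 6 samples were heated, so no value here compares heated with unheated cells. Both conditions carry the replicate numbers 1, 2 and 3 in their labels, and the labels do not say whether a number stands for a culture, a batch or a hybridisation, so p-values measure only the spread between these arrays.

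The values are log2 MAS 5.0 signals of Affymetrix U133 Plus 2.0 arrays, on which 1 unit is a 2-fold change. The median log2 signal of an array lay between 5.80 and 5.95, and 47.7% to 49.7% of its probe sets lay above the background level of 5.98, which is the 95th percentile of the mean signals of 107 olfactory receptor probe sets. The arrays numbered 1 stood apart from those numbered 2 and 3 in both conditions, with 3389 of 54613 probe sets at an adjusted p under 0.05 in limma. The count was 0 when the prior variance of limma did not follow the signal level. Among the markers used to check the cell label, 6 of 7 measured hepatocellular genes lay above background, against 3 of 8 stellate cell and fibroblast genes and 1 of 6 leukocyte genes. By number, 3 of the 7 hepatocellular genes passed as higher in number 1 and 0 as lower, while 4 read higher and 3 lower (median 0.12). Over all genes above background, 8.64% passed as higher and 7.95% as lower, and the marker lists are short. The secreted products TF and ALB were higher in the arrays numbered 1 by 2.83 and 1.85 on the log2 scale (adjusted p = 1.83e-06 and 0.0071, limma). SERPINA1 (adjusted p = 0.00577) read 7.82, 5.16 and 5.85 in POSTN arrays 1, 2 and 3 and 7.79, 4.14 and 4.40 in the control arrays, above background in number 1 alone, so its difference is no exact size. Of the 8 stellate genes, 1 passed, the matrix gene DCN, which was lower, averaging 8.60 in number 1 and 9.60 in numbers 2 and 3 (adjusted p = 0.000407). The summed linear signal of the hepatocellular list was 46900 to 50905 in the arrays numbered 1, against 50013 to 54833 in the others. That of the stellate list was 2940 to 3406 in the arrays numbered 1, against 3493 to 3802 in the others, and that of the leukocyte list was 107 to 217 in the arrays numbered 1, against 189 to 251 in the others. In bulk RNA, fewer cells that express a gene and less of its RNA per cell cannot be told apart. The GAPDH control probe sets, whose 3′ minus 5′ log2 signal is a common check of RNA quality, gave -0.074 in POSTN 1 and -0.062 in control 1, below the -0.053 to -0.0018 of the other 4 arrays, and for ACTB the same measure was 0.93 and 0.90, within the range of 0.81 to 1.09 of the others. The part of these differences in the results below was not tested.

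The first comparison asked whether POSTN altered proteasome genes in the heated cells. No proteasome gene passed the test, and the differences were small: over the 41 genes above background they ran from -0.17 to 0.079 on the log2 scale. Lower means with POSTN were found for 28 of 42 genes and higher means for 14, with a median difference of -0.041 (-0.039 over the 41 above background, against -0.008 over all 11550 genes above background). By class, the median difference was -0.058 for the core, -0.037 for the cap and -0.10 for the immunoproteasome subunits. Within the cap, 4 of 5 ATPases had a positive difference (median 0.034, with PSMC3 at 4.3e-05) and 8 of 9 non-ATPase subunits a negative one (median -0.044). Of all 11550 genes above background, 5446 were higher and 6104 lower with POSTN. In numbers 1, 2 and 3 the ATPase median was -0.072, 0.15 and -0.033, and 0 ATPases were higher in all 3. The non-ATPase median was -0.0047, 0.024 and -0.026.

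In limma with Benjamini-Hochberg adjustment over all probe sets, 0 of 42 genes had an adjusted p under 0.05, which was also the share over all probe sets (0%), where the lowest adjusted p was 0.9999. At an unadjusted p under 0.05, 0 genes were lower (0.416% of all genes above background) and 0 higher (0.45%). With the replicate number as a block, PSMA7, PSMB1, PSMB4 and PSMD10 were lower at an unadjusted p under 0.05 (9.76% of the 41 genes above background, background 2.62%) and 0 genes were higher (background 2.01%), and none passed after adjustment (lowest adjusted p 0.966). The difference was negative in all 3 numbers for 12 genes (29.3%, background 14.8%) and positive in all 3 for 2 (4.88%, background 10.4%). All 3 POSTN arrays lay below all 3 control arrays for PSMD10 alone (2.44%, background 2.81%) and above them for PSMG1 alone (2.44%, background 2.16%). The SEs and 95% intervals given here for POSTN come from the fit without the block, unless the block is named. These intervals had a median width of 0.23 to each side, with a lowest bound of -0.51 (PSMB10) and a highest of 0.37 (PSMF1). With the block, the 95% intervals of PSMA7, PSMB1, PSMB4 and PSMD10 lay wholly below 0. Without the POSTN array numbered 1 the median difference of the 42 genes was 0.016, and without the control array numbered 3 it was 0.011, so the sign of the median rests on single arrays.

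**Figure D1:**
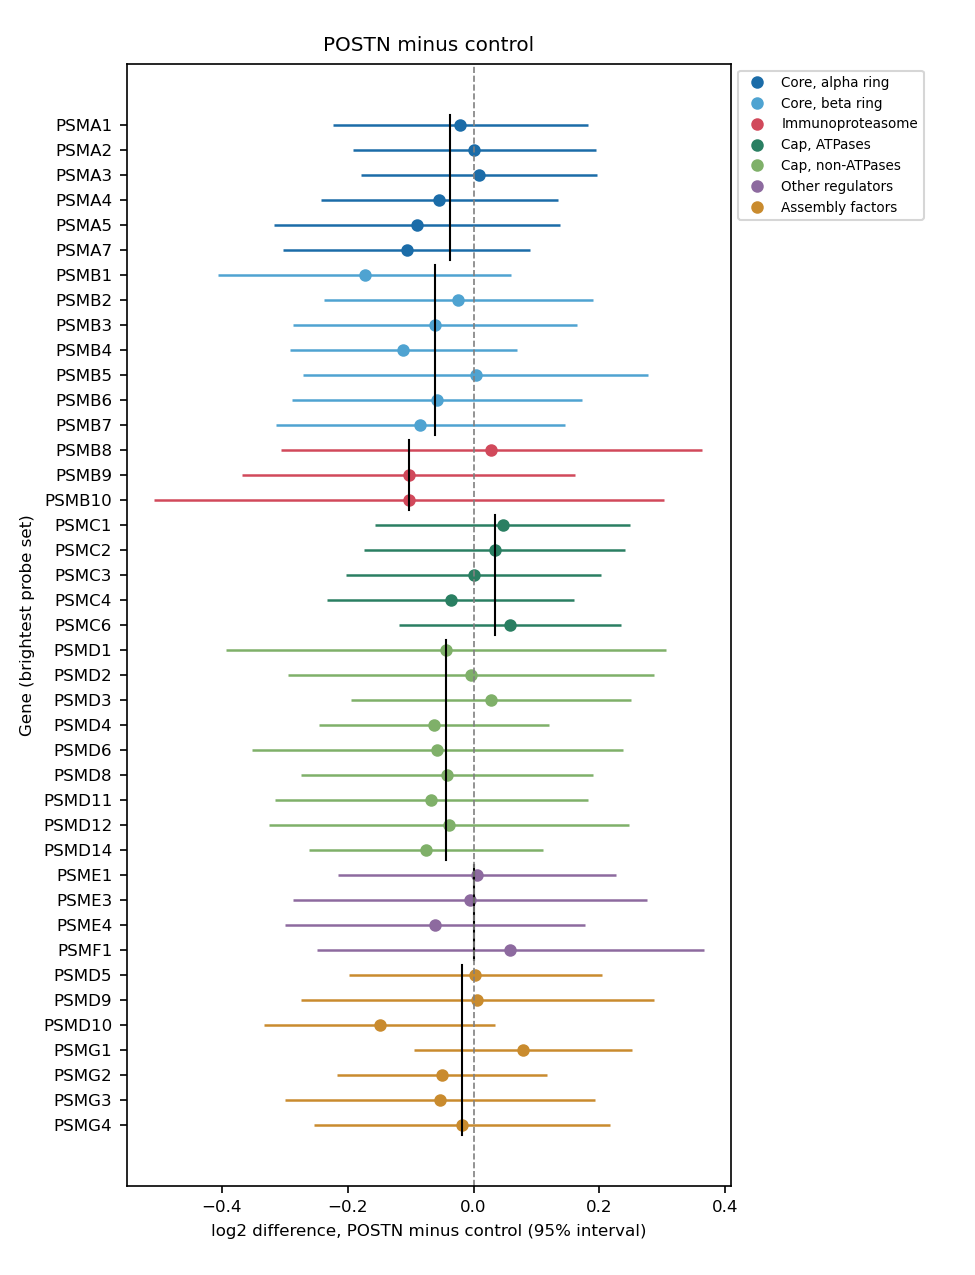
Log2 difference, POSTN minus control, for the 41 proteasome genes above background (points, coloured by class) with the 95% interval of the limma fit (lines, 3 arrays per condition) and the median of each class (black bars). The points lie between -0.17 and 0.079, and every interval of this fit, which leaves out the replicate block, spans 0.

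The second comparison set the arrays numbered 1 against those numbered 2 and 3, with condition in the model. Most core and cap genes read lower in number 1, where 10 of 27 passed the test as lower and 0 as higher, and the 3 inducible subunits read higher, where 1 passed. Over the 41 genes above background the median difference was -0.14, against 0.010 over all 11550 genes above background. Of those 11550 genes, 5629 read lower and 5921 higher in number 1, and 7.95% passed as lower and 8.64% as higher. The core had a median of -0.16 (12 of 13 genes lower), the non-ATPase cap subunits -0.24 (9 of 9 lower), the ATPases -0.097 (3 of 5 lower), the assembly factors -0.098 (7 of 7 lower) and the immunoproteasome subunits 0.32 (3 of 3 higher). The median over the 42 genes was negative within each condition, at -0.16 between the POSTN arrays and -0.11 between the control arrays.

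At an adjusted p under 0.05, 12 genes were lower in number 1 (29.3% of the 41 above background, background 7.95%) and 2 were higher, PSMB10 and PSMF1 (4.88%, background 8.64%). The 12 were PSMA5, PSMB1, PSMB3, PSMB5 and PSMB7 of the core, PSMD1, PSMD6, PSMD8, PSMD11 and PSMD12 of the cap, and the assembly factors PSMD9 and PSMG3. Both arrays numbered 1 lay below the 4 others for 24 genes (58.5%, background 20.6%) and above them for 5 (12.2%, background 23.2%). The F test over the 3 numbers, which singles out none, called 6 genes (14.6%, background 11.3%), and numbers 2 and 3 differed from each other in 0 in limma (background 0%), and in 0 at an unadjusted p under 0.05, against 7.32% of all genes above background. Number 1 was singled out because earlier results of these data had shown its arrays apart, so the counts describe these arrays. The background shares, here and for POSTN, cover all genes above background and were not matched for signal level. With the block, the median SE of the POSTN difference was 0.057 for the 41 genes, against 0.10 over all genes above background. The part of signal level in the shares was not tested.

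The number of calls depended on the fit and on single arrays, while the median stayed negative in each. It was 0, for the members and over all probe sets, when the prior variance of limma did not follow the signal level (0 of 42 members also at an unadjusted p under 0.05, against 27 in the fit used here, where the share over all genes above background was 37.2%). It was 7 without the POSTN array numbered 1, 7 without POSTN 3, 6 without control 1 and 6 without control 3. The F test called 0 genes without POSTN 1, 2 without control 1, 3 without control 3, 14 without POSTN 2 and 15 without control 2.

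**Figure D2:**
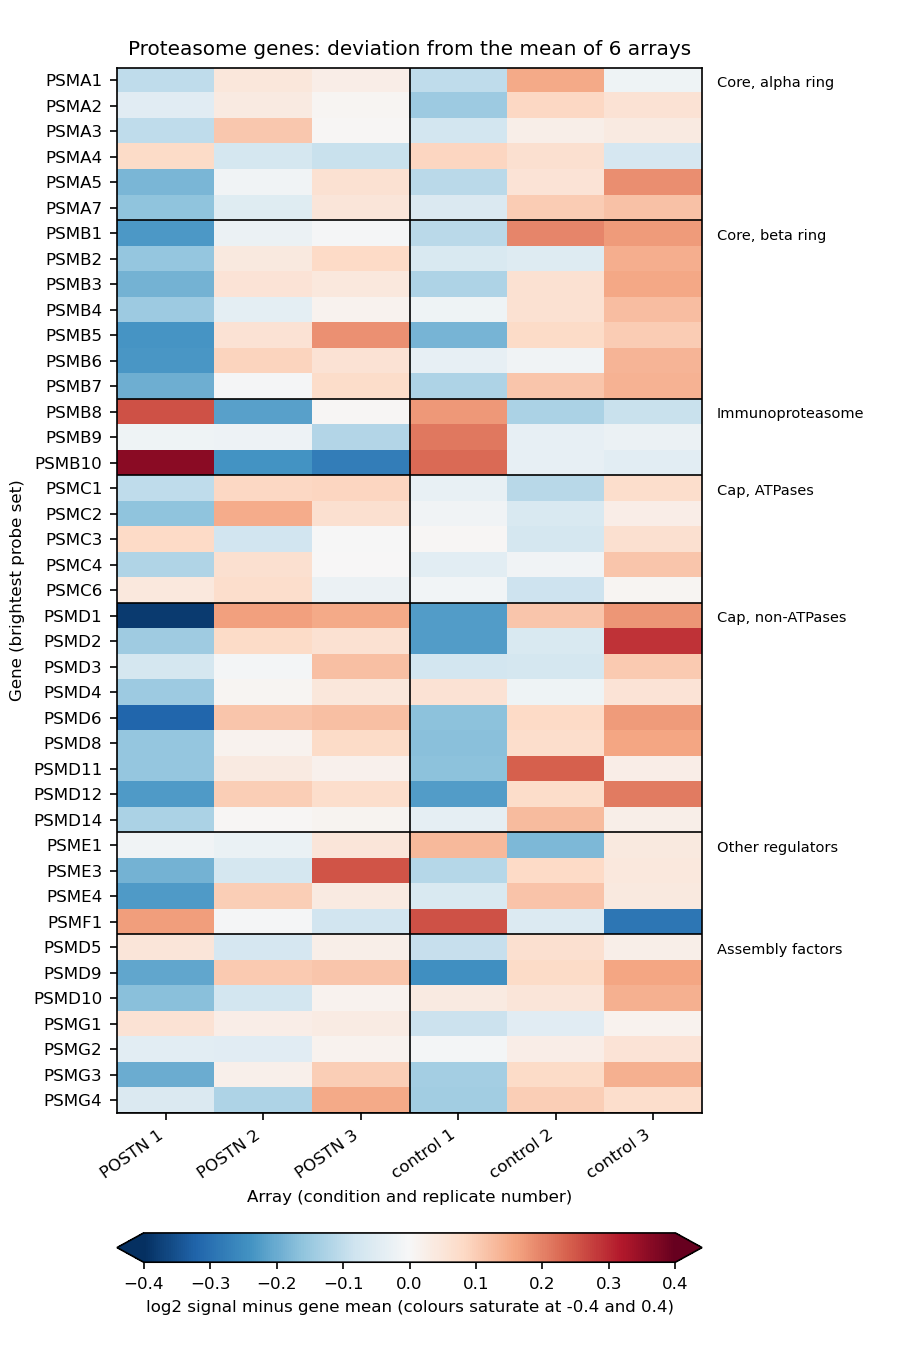
Deviation of the log2 signal from the mean over 6 arrays for the 41 proteasome genes above background (rows, by class) in the POSTN and control arrays (columns), blue below and red above the mean. The POSTN array numbered 1 had the lowest signal of the 6 for 22 of the 41 genes, a count not made over all genes. The median deviation of the 27 core and cap genes was -0.15, 0.039 and 0.048 in POSTN 1, 2 and 3. In control 1, 2 and 3 it was -0.075, 0.060 and 0.11. Over all genes above background the median deviation was -0.00069 in POSTN 1, 0.019 in control 1 and -0.0052 to 0.0072 in the others.

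**Figure D3:**
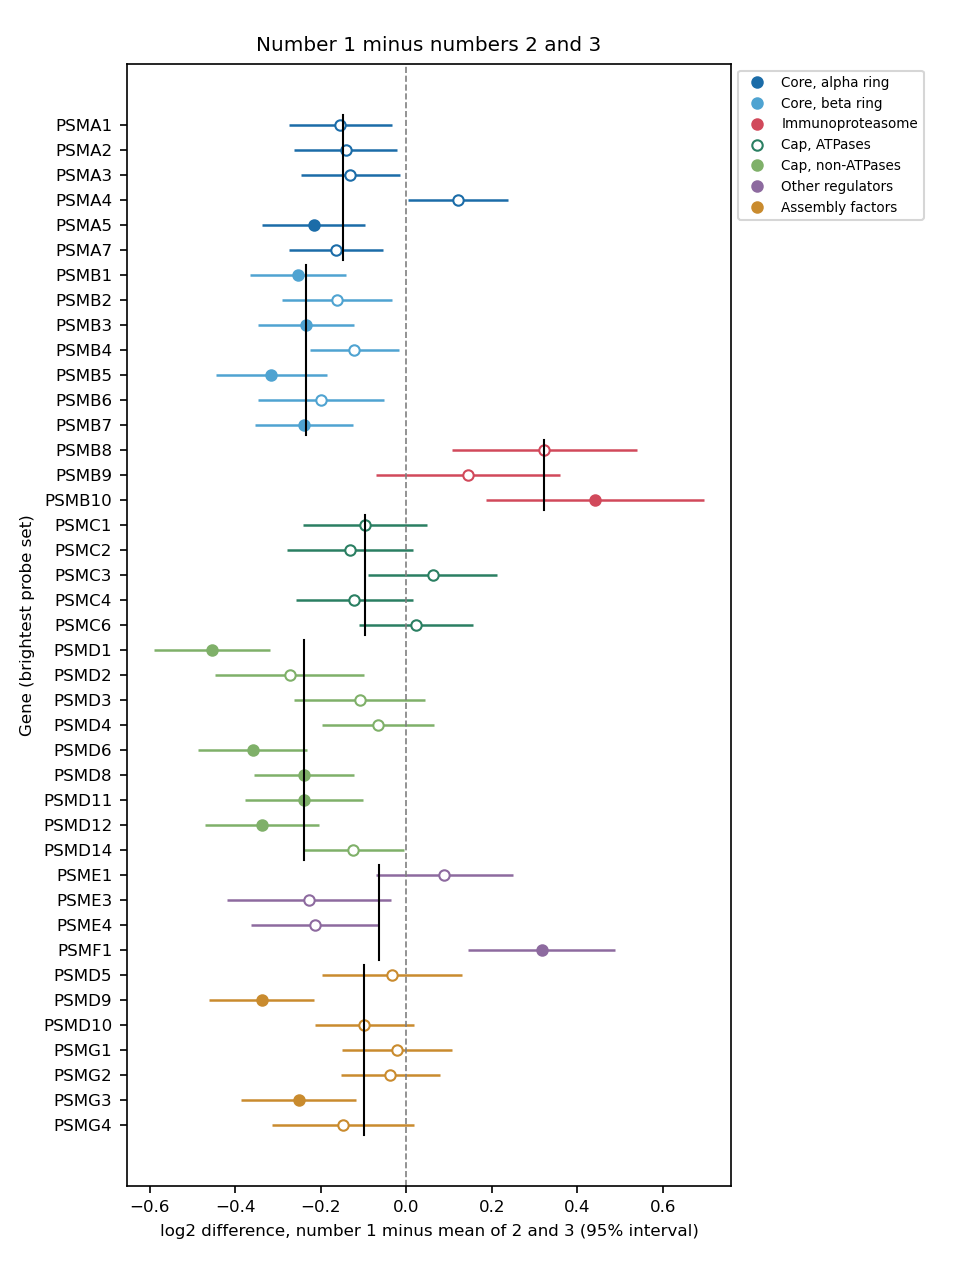
Log2 difference, number 1 minus the mean of numbers 2 and 3, for the same 41 genes with 95% intervals of the limma fit (2 arrays against 4) and class medians (black bars). Filled points have an adjusted p under 0.05 and open points do not, and the filled points comprise 12 below 0 and 2 above it.

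Within the alpha ring, which gates entry to the core, the most negative POSTN difference above background was that of PSMA7 (on a probe set of a kind that may hybridise with related transcripts). Its log2 signal was 13.77, 13.88 and 13.98 in POSTN arrays 1, 2 and 3, against 13.87, 14.03 and 14.05 in control arrays 1, 2 and 3. The POSTN array was below the control array in each number, but the ranges overlapped, and the difference was -0.11 ± 0.088 (SE; 95% interval -0.30 to 0.090, limma). The other PSMA7 probe set above background differed by -0.057, with POSTN above control in number 1. Its number 1 difference was 0.041, against -0.16 on the brightest. PSMA4, another alpha subunit, was the only core gene above background with a higher signal in number 1. It read 13.62, 13.48 and 13.46 with POSTN and 13.63, 13.61 and 13.48 in control, a difference of 0.12 ± 0.053 for number 1 that did not pass the test (adjusted p = 0.264). PSMA5 was the alpha gene that passed, with 12.63, 12.80 and 12.87 in POSTN and 12.71, 12.87 and 13.00 in control and a number 1 difference of -0.22 ± 0.055 (adjusted p = 0.0405), though its other probe set above background differed by 0.25. PSMA8, the alpha subunit of the testis, was the single member below background, at 4.25, 4.95 and 3.88 with POSTN and 5.70, 2.82 and 5.17 in control, a spread of several log2 units with no order by condition or number.

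The beta ring held the most negative POSTN difference above background. PSMB1, a non-catalytic subunit, had a log2 signal of 13.73, 13.94 and 13.96 with POSTN, against 13.86, 14.16 and 14.13 in control. Each POSTN array lay below the control array of its number, while POSTN 2 and 3 lay above control 1. The difference was -0.17 ± 0.10, a fold of 0.887 (95% interval -0.41 to 0.060, limma without the block). With the block the interval was -0.28 to -0.068 (limma, unadjusted p = 0.00401, adjusted p = 0.966). The other PSMB1 probe set above background, of nearly the same brightness, differed by -0.030, with POSTN above control in numbers 2 and 3. PSMB4, also without a catalytic site, read 14.28, 14.39 and 14.44 with POSTN and 14.41, 14.48 and 14.55 in control. Its POSTN array was below its control array in each number, with a difference of -0.11 ± 0.081 (95% interval -0.29 to 0.069, limma). By number, PSMB1 (-0.25 ± 0.050, adjusted p = 0.0126) and PSMB3 (-0.23 ± 0.051, adjusted p = 0.0205) passed as lower in number 1, and PSMB4 (-0.12) and PSMB2 (-0.16) did not pass. The other PSMB1 probe set above background differed by -0.15 in number 1 and was not called (adjusted p = 0.265, limma).

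Of the constitutive catalytic subunits, PSMB5 and PSMB7 passed the test by number, and none passed by condition. PSMB5, which carries the chymotrypsin-like site, read 12.28, 12.58 and 12.70 with POSTN, against 12.34, 12.60 and 12.62 in control. Both arrays numbered 1 lay below all others, with a difference of -0.32 ± 0.058 (adjusted p = 0.00849, limma, and adjusted p = 0.0258 in the F test over the numbers), whereas POSTN and control differed by 0.0034 ± 0.12. Without POSTN 1 the adjusted p of PSMB5 by number was 0.085. PSMB7, the trypsin-like subunit, had the same layout at 13.17, 13.36 and 13.44 with POSTN and 13.24, 13.48 and 13.51 in control. Its number 1 difference was -0.24 ± 0.052 (adjusted p = 0.0192) and its POSTN difference -0.085 ± 0.10. PSMB6, the caspase-like subunit, read 12.62, 12.94 and 12.91 with POSTN and 12.82, 12.84 and 12.99 in control. Control 1 and control 2 were close, and the number 1 difference of -0.20 ± 0.067 did not pass the test (adjusted p = 0.123).

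The 3 inducible subunits read higher in number 1. PSMB10, the counterpart of PSMB7, read 9.75, 9.15 and 9.11 with POSTN, against 9.61, 9.35 and 9.34 in control. Both arrays numbered 1 lay above the 4 others, by 0.44 ± 0.12 or a fold of 1.36 (adjusted p = 0.0482, limma). The call of PSMB10 lay close to the threshold, and it was lost under quantile normalization and median centring, with an adjusted p of 0.53 without POSTN 1 and 0.121 without POSTN 3. PSMB8, the counterpart of PSMB5, read 9.92, 9.44 and 9.67 with POSTN and 9.84, 9.54 and 9.57 in control. It also stood apart by number without overlap (0.32 ± 0.098), but did not pass the test (adjusted p = 0.0886). PSMB9, the counterpart of PSMB6, read 9.73, 9.73 and 9.63 with POSTN and 9.96, 9.71 and 9.72 in control. POSTN 1 was nearly level with POSTN 2, and its difference of 0.14 ± 0.098 did not pass (adjusted p = 0.515). With POSTN the differences were -0.10 ± 0.18 for PSMB10, 0.028 ± 0.15 for PSMB8 and -0.10 ± 0.12 for PSMB9, none past the test.

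Because each array is scaled as a whole, each inducible subunit was also set against its constitutive counterpart within the array, where only changes of the log2 difference between arrays can be read. PSMB8 minus PSMB5 was -2.37, -3.13 and -3.04 in POSTN arrays 1, 2 and 3, against -2.50, -3.06 and -3.05 in the control arrays. PSMB9 minus PSMB6 was -2.89, -3.22 and -3.28 with POSTN, against -2.86, -3.13 and -3.27 in control, and PSMB10 minus PSMB7 was -3.43, -4.22 and -4.33 with POSTN, against -3.63, -4.13 and -4.16 in control. Both arrays numbered 1 lay above the other 4 in each pair, by 0.64 (1.56-fold), 0.35 (1.27-fold) and 0.68 (1.60-fold) on average. The mean difference between POSTN and control was 0.025, -0.045 and -0.018 for the 3 pairs, under the SD within a condition of 0.21 to 0.49 in POSTN and 0.21 to 0.32 in control. An exact permutation test of 2 against 4 arrays cannot go below p = 0.0667, and one of 3 against 3 cannot go below 0.10.

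**Figure D4:**
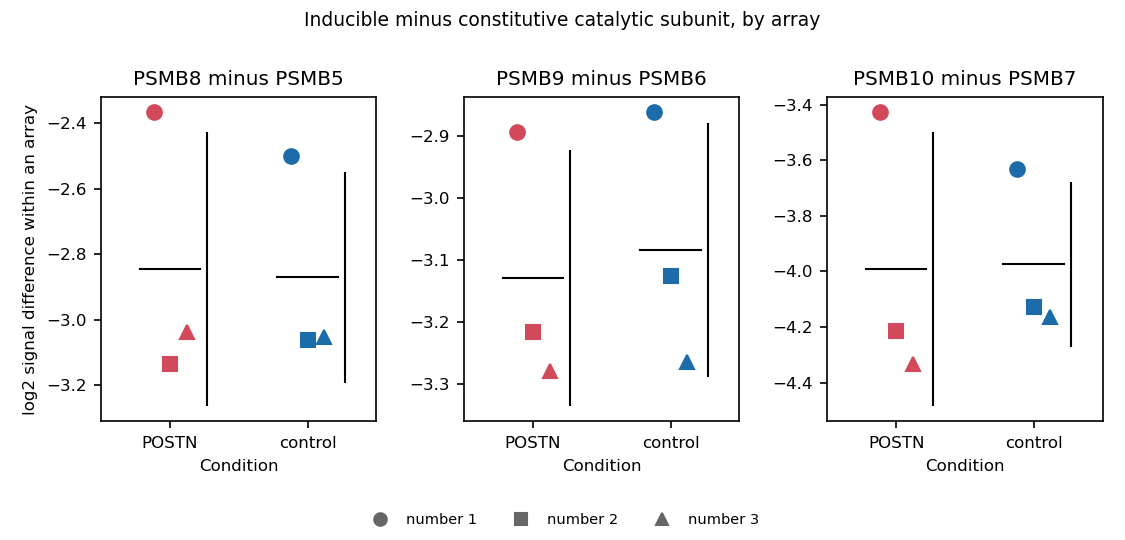
Log2 signal of each inducible catalytic subunit minus that of its constitutive counterpart in the same array, for POSTN (red) and control (blue), with marker shape for the replicate number, a bar at the mean and a line for 1 SD to each side (3 arrays per condition). In each pair the circles (number 1) lie above all squares and triangles, and the means of POSTN and control differ by at most 0.045.

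Of the ATPases of the cap, 0 of 5 passed in limma by number and 0 reached an unadjusted p under 0.05. Over all genes above background, 7.95% passed as lower, 8.64% as higher and 37.2% at an unadjusted p under 0.05, and 5 genes are few to set beside these shares. The ATPase differences ranged from -0.13 to 0.061. PSMC6 read 12.60, 12.63 and 12.53 with POSTN and 12.55, 12.47 and 12.57 in control, and PSMC1 read 12.42, 12.61 and 12.61 with POSTN and 12.49, 12.41 and 12.59 in control. These were the largest positive POSTN differences in the cap, at 0.058 ± 0.079 (95% interval -0.12 to 0.23, limma) and 0.046 ± 0.091 (95% interval -0.16 to 0.25, limma), with overlapping arrays in both.

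The non-ATPase subunits of the cap included PSMD1 and PSMD6, the most negative differences by number among the 41 genes. PSMD1, the scaffold of the cap base on which ubiquitin receptors sit, read 12.28, 12.83 and 12.82 with POSTN, against 12.44, 12.78 and 12.84 in control. Number 1 minus the others was -0.45 ± 0.062, a fold of 0.73 (adjusted p = 0.0014, limma, and adjusted p = 0.00512 in the F test), and POSTN differed from control by -0.044 ± 0.16. The other PSMD1 probe set above background was lower in number 1 by less, at -0.16, and was not called (adjusted p = 0.263, limma). PSMD6, a lid subunit, read 12.87, 13.29 and 13.30 with POSTN and 13.02, 13.26 and 13.35 in control, and PSMD12, another lid subunit, read 12.26, 12.58 and 12.56 with POSTN and 12.26, 12.56 and 12.69 in control. Their number 1 differences were -0.36 ± 0.057 (adjusted p = 0.00366) and -0.34 ± 0.060 (adjusted p = 0.00681), with no overlap between number 1 and the rest. The other PSMD12 probe set above background differed by -0.14 and was not called (adjusted p = 0.254, limma). PSMD2, the other large base subunit, read 11.87, 12.09 and 12.07 with POSTN and 11.79, 11.95 and 12.30 in control, where control 3 stood above the other arrays, and its difference of -0.27 ± 0.079 did not pass the test (adjusted p = 0.0716). PSMD8 and PSMD11, also of the lid, passed as lower in number 1 (both -0.24, adjusted p = 0.0221 and 0.0465). The POSTN differences of the 9 non-ATPase subunits lay between -0.076 and 0.027.

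Among the other regulators, PSMF1, a protein that binds the core and inhibits it in vitro, read 11.38, 11.21 and 11.14 with POSTN, against 11.47, 11.16 and 10.93 in control. Both arrays numbered 1 lay above the 4 others, by 0.32 ± 0.078 (adjusted p = 0.036, limma). The adjusted p was 0.39 without control 1 and 0.139 without control 3, and the number 1 differences of its 4 probe sets above background ran from -0.15 to 0.79. Its POSTN difference of 0.059 ± 0.14 was the second highest above background and did not pass (95% interval -0.25 to 0.37, limma). PSME1, a subunit of the interferon-inducible activator that opens the core without ubiquitin, read 11.77, 11.76 and 11.83 with POSTN and 11.92, 11.61 and 11.83 in control, with control 1 highest and control 2 lowest. It differed by 0.0055 ± 0.099 with POSTN and by 0.088 ± 0.073 in number 1 (adjusted p = 0.612). The nuclear activator subunit PSME3 and the large activator PSME4 read lower in number 1, with differences of -0.23 and -0.21 that did not pass.

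Of the assembly factors, PSMD10 (gankyrin), a chaperone of the cap base that is also known as an oncoprotein of hepatocellular carcinoma, read 13.26, 13.35 and 13.44 with POSTN, against 13.46, 13.47 and 13.57 in control. All POSTN arrays lay below all control arrays, with a difference of -0.15 ± 0.082 or a fold of 0.902, which did not pass the test (95% interval -0.33 to 0.034, limma without the block). With the block the interval was -0.26 to -0.041 (limma, unadjusted p = 0.0116, adjusted p = 0.966). The second PSMD10 probe set above background differed by -0.0082. PSMG1, which helps to build the alpha ring, read 12.53, 12.50 and 12.51 with POSTN and 12.39, 12.43 and 12.49 in control. This was the only gene with all POSTN arrays above all control arrays, by 0.079 ± 0.078 (95% interval -0.094 to 0.25, limma). PSMD9, another chaperone of the cap base, read 12.57, 12.88 and 12.89 with POSTN and 12.53, 12.85 and 12.94 in control, with both arrays numbered 1 below the rest (difference -0.34 ± 0.055, adjusted p = 0.00428). PSMG3, a chaperone of the core, passed as lower too (-0.25 ± 0.061, adjusted p = 0.0333).

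RefSeq promoter windows (GRCh38.p14) were searched for the cores of the antioxidant response element and the interferon-stimulated response element, and for the CCAAT box. The search was made after the differences by number were seen. Of the 42 genes, 36 matched an entry, and the 250 bases before each start were searched on both strands. The core of the antioxidant response element, TGACNNNGC, which NFE2L1 binds with small MAF proteins, was found in 11 of the 36 genes (30.6%), against 13.2% of all 27305 genes with an entry. By class, it was in 4 of 22 core and cap genes above background, 4 of 6 assembly factors, 2 of 4 other regulators and 1 of 3 immunoproteasome subunits. It was found in 3 of 9 genes called lower in number 1 (PSMB3, PSMD12 and PSMD9) and in 2 of 14 core and cap genes that were not called (PSMA4 and PSMD3). The 9 include the assembly factor PSMD9 and the 14 hold no assembly factor, so these groups are unlike. The remaining carriers, PSMB9, PSMD5, PSME1, PSME4, PSMG1 and PSMG2, were not called lower either. PSMB3, PSMD12, PSMD9, PSMA4 and PSMD3 are shown with the motif in capitals, 5′ to 3′ along the gene's strand. PSMD9 has a pair of matches, the first of them in reverse orientation.
PSMD12 (chr17:67366718-67366758, minus strand): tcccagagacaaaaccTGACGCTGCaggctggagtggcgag
PSMB3 (chr17:38752621-38752661, plus strand): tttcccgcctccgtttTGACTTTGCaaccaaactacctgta
PSMD9, first match (chr12:121888625-121888665, plus strand): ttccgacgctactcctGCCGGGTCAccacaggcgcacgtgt
PSMD9, second match (chr12:121888672-121888712, plus strand): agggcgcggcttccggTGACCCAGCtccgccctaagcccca
PSMA4 (chr15:78540644-78540684, plus strand): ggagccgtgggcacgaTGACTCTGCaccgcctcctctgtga
PSMD3 (chr17:39980754-39980794, plus strand): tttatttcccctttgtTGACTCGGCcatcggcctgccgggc

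The interferon-stimulated response element core, GAAANNGAAA, was found in 4 of the 36 genes (11.1%), against 3.71% of all genes. PSMB10, the inducible subunit called higher in number 1, held it 11 bases before its start. The other 3 genes were PSMA4, PSMB4 and PSMG4, with number 1 differences of 0.12, -0.12 and -0.15 that did not pass. The match of PSMB10 is shown in capitals and does not overlap a match of the other motif.
PSMB10 (chr16:67936851-67936887, minus strand): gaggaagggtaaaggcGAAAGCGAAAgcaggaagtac
The CCAAT box, CCAAT, was found in 16 of the 36 genes (44.4%), against 37.0% of all genes. A match describes the letters of a window and was not tested as a binding site. PSMB8 and PSMB9 had no match of GAAANNGAAA in their windows.

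Lists of genes that work with the proteasome were read beside the shares over all genes (7.95% lower and 8.64% higher in number 1), and the lists are too short for a count near those shares to be a result. None of their members reached an unadjusted p under 0.05 for POSTN in limma. Of 14 partners outside the symbol rule, 0 passed with POSTN and 1 was lower in number 1 (list median -0.066). That gene was ADRM1, a ubiquitin receptor of the cap, which read 11.74, 12.10 and 12.18 with POSTN and 11.72, 11.97 and 12.20 in control (-0.38 ± 0.063 in number 1, adjusted p = 0.00441, limma). POMP, the maturation factor of the core, differed by 0.0078 ± 0.082 with POSTN and by -0.12 ± 0.054 in number 1 (adjusted p = 0.278). The ends of the list with POSTN were UCHL5, a deubiquitinase of the cap (-0.12 ± 0.10), and UBLCP1, a phosphatase of nuclear proteasomes (0.046 ± 0.15).

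In the NFE2L1 list, 0 of 6 genes passed with POSTN, where the ends were MAFF (-0.085 ± 0.24) and NFE2L3 (0.041 ± 0.14), a paralogue of NFE2L1. By number, the small MAF partners of NFE2L1 went opposite ways. MAFF read 11.31, 11.91 and 12.06 with POSTN and 11.31, 12.16 and 12.07 in control, lower in number 1 (-0.74 ± 0.072, adjusted p = 0.000149), and MAFG read 11.73, 11.18 and 11.34 with POSTN and 11.62, 11.34 and 11.19 in control, higher in number 1 (0.41 ± 0.078, adjusted p = 0.00967, limma). NFE2L1 itself read 11.51, 11.40 and 11.45 with POSTN and 11.72, 11.17 and 11.60 in control, and its difference of 0.21 ± 0.090 did not pass (adjusted p = 0.238).

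In the list of ubiquitin genes, activating enzymes and shuttle receptors, 0 of 10 passed with POSTN, with the polyubiquitin gene UBB (-0.094 ± 0.091) and the unfoldase VCP (0.080 ± 0.082) at the ends. The shuttle receptor UBQLN2 was higher in number 1 (0.29 ± 0.061, adjusted p = 0.0163), and the list median was -0.10. Of the antigen presentation genes that share interferon control with the immunoproteasome, 0 of 12 passed by number in limma and 3 reached an unadjusted p under 0.05 (over all genes above background, 37.2%). In number 1, 6 read higher and 6 lower, and their median was 0.0044, beside 0.32 for PSMB8, PSMB9 and PSMB10. The median of the 12 was -0.13 between the POSTN arrays and 0.12 between the control arrays. In both conditions alike, 5 of the 12 were lower and 0 higher in number 1 (3981 and 4347 of all 11550 genes above background). TAP1, a peptide transporter that lies beside PSMB9 and PSMB8 in the MHC region, read 9.02, 9.12 and 9.35 with POSTN and 8.76, 9.03 and 9.11 in control. Its number 1 difference of -0.26 ± 0.12 was opposite in sign to theirs, and it had the largest POSTN difference of its list (0.20 ± 0.15), with B2M, the light chain of MHC class I, at the other end (-0.11 ± 0.078).

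Of 81 probe sets of the 42 genes, 71 lay above background, and 30 of these were not the brightest of their gene. Of the 30, 25 were lower in number 1, with 1 called lower (PSMD9) and 1 called higher (PSMF1). Over the brightest probe sets of all genes above background, 5629 of 11550 read lower, 7.95% were called lower and 8.64% higher. The 29.3% of members called lower thus holds for their brightest probe sets and was not seen in the other 30. The probe sets of a gene shared the sign of the number 1 difference for 14 of 19 genes with more than 1 above background, and the sign of the POSTN difference for 15 of 19. One dim probe set of PSMD6, below background on all arrays, differed by 2.64 with POSTN with an unadjusted p under 0.05 in limma, while the brightest one differed by -0.058. It was the only probe set of the 81 that met an unadjusted p under 0.05 and a fold over 2 or under 0.5 in limma, and by the test of the study's methods 0 of the 81 met both limits. None of the 8 other symbols passed in either comparison, and 5 of them lay above background.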

How the data were processed

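RNA from heat-treated residual MHCC97H cells was measured on 6 Affymetrix U133 Plus 2.0 arrays, 3 with POSTN and 3 control, grouped by the sample labels. The authors summarised each array with MAS5 and the affy package (no version is given in the sources used here). These deposited log2 values are MAS5 signals, each array scaled to a mean linear signal of 500.0 after trimming 2% at either end. Because background and mismatch signal were subtracted, dim probe sets are noisy as logs, and precision is limited by the number of arrays.

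Of 54675 probe sets, 62 controls were left out. Probe sets with 1 symbol in the platform annotation (41091; several for 1801, none for 11721) were named. POSTN and control were compared with limma 3.58.1 under R 4.3.3, whose eBayes step let the prior variance depend on signal, and p-values were adjusted by Benjamini-Hochberg over 54613 probe sets. Replicate numbers were compared in a second fit with condition as a term. The t-test (run here with equal variances on log2 values) and the fold limit of 2 named in the study's methods were an alternative. The scripts were tested on simulated data.

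The members and gene lists were chosen with earlier results of these data known. Named were the catalytic and inducible beta subunits, PSME1 and PSME2 (not measured singly), the 4 largest POSTN differences of each sign, members with an unadjusted p under 0.05 for POSTN (none), the 6 largest number 1 differences of each sign, members below background, and the ends of each other list with POMP, NFE2L1 and TAP1. Genes called by number in the other lists, PSME3, PSME4 and the other called members, and PSMB2, were named after their values were seen. After removing each condition's mean, arrays that share a number had correlations of 0.529, 0.235 and 0.239 over the 25320 probe sets above background (0.0882, 0.0340 and 0.0252 over all), so the numbers were taken as pairing the arrays. The margin was small for numbers 2 and 3, since POSTN 2 with control 3 gave 0.150 and POSTN 3 with control 2 gave 0.201. This pairing comes from the data and is not stated in the labels. The fit with the replicate block was an alternative. Other alternatives were quantile normalization, median centring, log2(value + 50), a filter on dim probe sets, leaving out _x_at and _s_at probe sets, array weights, a prior variance that ignores signal, other ways to take 1 value per gene, leaving out each array and leaving out both arrays numbered 1. Figures were drawn with matplotlib in Python.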

Additional observations from a re-analysis of the deposited data

How the results depend on the processing

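With POSTN, 0 of 42 proteasome genes had an adjusted p under 0.05 under every alternative run, the replicate block (0 genes, median -0.041) and the methods' t-test (0 genes) included. The median POSTN difference ranged from -0.092 (median centring) to -0.017 (quantile normalization) with all arrays, from -0.074 to 0.016 with 1 array left out, and was -0.034 without both arrays numbered 1. The median shift over all 54613 probe sets was -0.051 for POSTN under both scalings. For number 1 it was 0.0075 under quantile normalization and 0.017 under median centring. For number 1 against numbers 2 and 3, 14 genes passed, against 8 under quantile normalization, 7 under median centring, 8 without _x_at and _s_at probe sets, 8 with the mean of all probe sets of a gene, 0 with a prior variance without the trend, and 6 to 18 with 1 array left out. The median was -0.14, against -0.085 under quantile normalization, and -0.16 to -0.11 with 1 array left out. The F test passed 6 genes, against 3 with log2(value + 50), 12 among probe sets above background, 2 with the mean of all probe sets, 0 without the trend, and 0 to 15 with 1 array left out. The cause was not tested. Over the named genes, none of 283 alternative POSTN values was called and 23 changed sign. Of 220 alternative number values, 29 lost and 5 gained the call, none reversed, and 1 changed sign. Signal over background limits PSMA8, and 3 arrays per condition limit the rest.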
